A study of Mus musculus with 12 samples.

Results

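The genes described here are 9 genes of calcitonin-producing C cells and of neuropeptide secretion: *Calca*, *Calcb*, *Npy*, *Sst*, *Ret*, *Gfra4*, *Chgb*, *Scg2* and *Scg3*. They are 9 of the 55536 genes in the deposited tables, found by symbol, and they were selected from values that compared affected with unaffected thyroids in these same mice. Differences between those groups are therefore given as a description, without a test. Of the 9, 8 passed the filter on low counts, and *Calcb* did not.

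Thyroid RNA was sequenced from 12 mice, 1 library per mouse. The affected mice (n = 5, library names ending in _TCW) were C57BL/6NTac (B6NTac) animals from Taconic with thyroid dysplasia, a colony in which a LINE-1 retrotransposon had inserted into an intron of the thyroglobulin gene *Tg*. The unaffected group (n = 7) held 6 C57BL/6NCrl (B6NCrl) mice from Charles River (_CRW) and 1 unaffected knockout animal from Taconic (_TCK, replicate 14), whose deleted gene is not named in the sources used here. Neither the labels nor the methods give the sex, age, LINE-1 genotype or processing batch of single mice. The 5 affected mice differ from the 6 _CRW mice in substrain and supplier as well as in phenotype, and these cannot be told apart in those 11 mice. Replicate numbers are those of the library names.

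C cells lie between the thyroid follicles and release calcitonin, which lowers blood calcium. Like other neuroendocrine cells they store peptides in dense-core granules with granins, process them with prohormone convertases, and carry the receptor tyrosine kinase *Ret* with its co-receptor *Gfra4*. Somatostatin and neuropeptide Y are small signalling peptides made by many neurons and endocrine cells, and somatostatin also by a subset of C cells. *Calca* makes calcitonin or calcitonin gene-related peptide (CGRP) from alternative last exons, and *Calcb* encodes a second CGRP.

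The promoters of 7 of the 9 genes were at hand in RefSeq (GRCm38.p6), and 3 are shown because they set *Calca* and a granin that followed it across mice beside *Npy*, whose groups lie apart. Each run is the 250 bases before the annotated start, 5′ to 3′ on the strand of the gene, and capitals mark the cAMP response element half-site TGACG.
Calca, chr7:114636358-114636607, minus strand: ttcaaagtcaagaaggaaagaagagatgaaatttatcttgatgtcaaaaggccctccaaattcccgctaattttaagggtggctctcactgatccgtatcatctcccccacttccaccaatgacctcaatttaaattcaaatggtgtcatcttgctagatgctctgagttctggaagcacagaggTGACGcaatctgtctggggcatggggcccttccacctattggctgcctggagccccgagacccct
Scg3, chr9:75684057-75684306, minus strand: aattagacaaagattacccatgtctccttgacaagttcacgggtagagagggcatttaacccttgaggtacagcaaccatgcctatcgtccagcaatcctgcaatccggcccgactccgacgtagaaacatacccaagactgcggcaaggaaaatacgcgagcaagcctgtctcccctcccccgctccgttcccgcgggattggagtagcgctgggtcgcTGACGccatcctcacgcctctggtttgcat
Npy, chr6:49822460-49822709, plus strand: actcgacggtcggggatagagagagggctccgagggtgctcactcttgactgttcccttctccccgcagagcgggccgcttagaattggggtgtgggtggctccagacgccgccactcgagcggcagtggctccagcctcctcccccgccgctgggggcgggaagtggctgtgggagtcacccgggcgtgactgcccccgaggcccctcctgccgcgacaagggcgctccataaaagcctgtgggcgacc
The half-site begins at position -65 in *Calca* and at -30 in *Scg3*, counted back from the start, and is not in the window of *Npy* on either strand. The full element TGACGTCA, which holds the half-site on both strands, begins at -68 in *Scg2*, at -72 in *Chgb* and at -48 in *Sst*. Of the 7 genes, 3 held the full element and 5 the half-site, and the windows of *Gfra4* held neither. Over all 32851 promoter windows of this length, 1.55% held the full element and 17.8% the half-site on either strand. The TATA box TATAAA was in none of the 7, against 12.4% of windows, and an endoplasmic reticulum stress element (CCAAT and CCACG with 9 bases between them) was in none of the 7, against 0.113%. A match is a run of letters, not a measured binding site, and the windows of *Scg2*, *Chgb* and *Sst* reach into the gene model of the deposited annotation.

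Reads per mouse limit the precision of the low genes. Total estimated counts were 20170500 to 23319948 in affected mice and 11434901 to 22401136 in unaffected mice, the lowest being the _TCK mouse. Levels are given as CPM, counts relative to the library total on a scale corrected by trimmed means (TMM), for comparisons between mice, and as FPKM, which is also corrected for transcript length, for comparisons between genes. The summed follicular markers, led by *Tg*, made up 101119 to 256409 CPM in affected and 210857 to 304508 CPM in unaffected mice. Skeletal muscle markers, led by *Myh4* and *Acta1*, ranged from 9.91 to 19800 CPM in affected and from 1.13 to 9344 CPM in unaffected mice, and T cell markers, led by *Rag1*, reached 631 CPM in the _TCK mouse and 449 CPM in unaffected replicate 21. Of the markers named so far, *Tg*, *Acta1* and *Rag1* are marked in the deposited table as overlapping another gene. In bulk RNA fewer cells of a type and less RNA per cell cannot be told apart.

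Per length, *Calca* stood far above the rest. Its FPKM was 689 ± 297 (SD, n = 5) in affected and 927 ± 204 (SD, n = 7) in unaffected mice, and it ranked 28th of 55536 genes by mean FPKM. *Scg2* was next with 73.9 ± 40.1 FPKM in affected and 96.9 ± 15.3 FPKM in unaffected mice (rank 347), followed by *Scg3* with 12.1 ± 5.40 and 14.3 ± 2.03 FPKM. *Gfra4*, *Ret*, *Npy* and *Chgb* formed a band in unaffected mice, with means of 8.87, 6.58, 6.54 and 6.47 FPKM and ranges that overlapped. *Sst* lay below that band at 2.65 ± 0.703 FPKM, and *Calcb* near the detection limit at 0.224 ± 0.156 FPKM. In affected mice the order was the same except within the band and for *Npy*, whose 0.416 ± 0.235 FPKM left it below *Sst* at 2.55 ± 2.04 FPKM. The highest affected mouse had 0.695 FPKM of *Npy* and the lowest 1.31 FPKM of *Sst*, so those neighbours did not overlap.

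Across the contrast used to select them, all 8 genes that could be fitted had a log2 fold change (affected minus unaffected) below 0, with a median of -0.35, beside 0.01 for all 19661 genes tested. In edgeR's quasi-likelihood fit with Benjamini-Hochberg adjustment, 13.7% of all genes tested passed the threshold of 0.05 in either direction and 6.1% as lower in affected mice. *Npy* was the 1 gene of the 9 with every affected mouse below every unaffected mouse, as were 3.36% of all genes tested. Since this contrast chose the genes, nothing is read from the direction or the overlap of the 9, and no pass or fail is given for them.

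**Figure D1:**
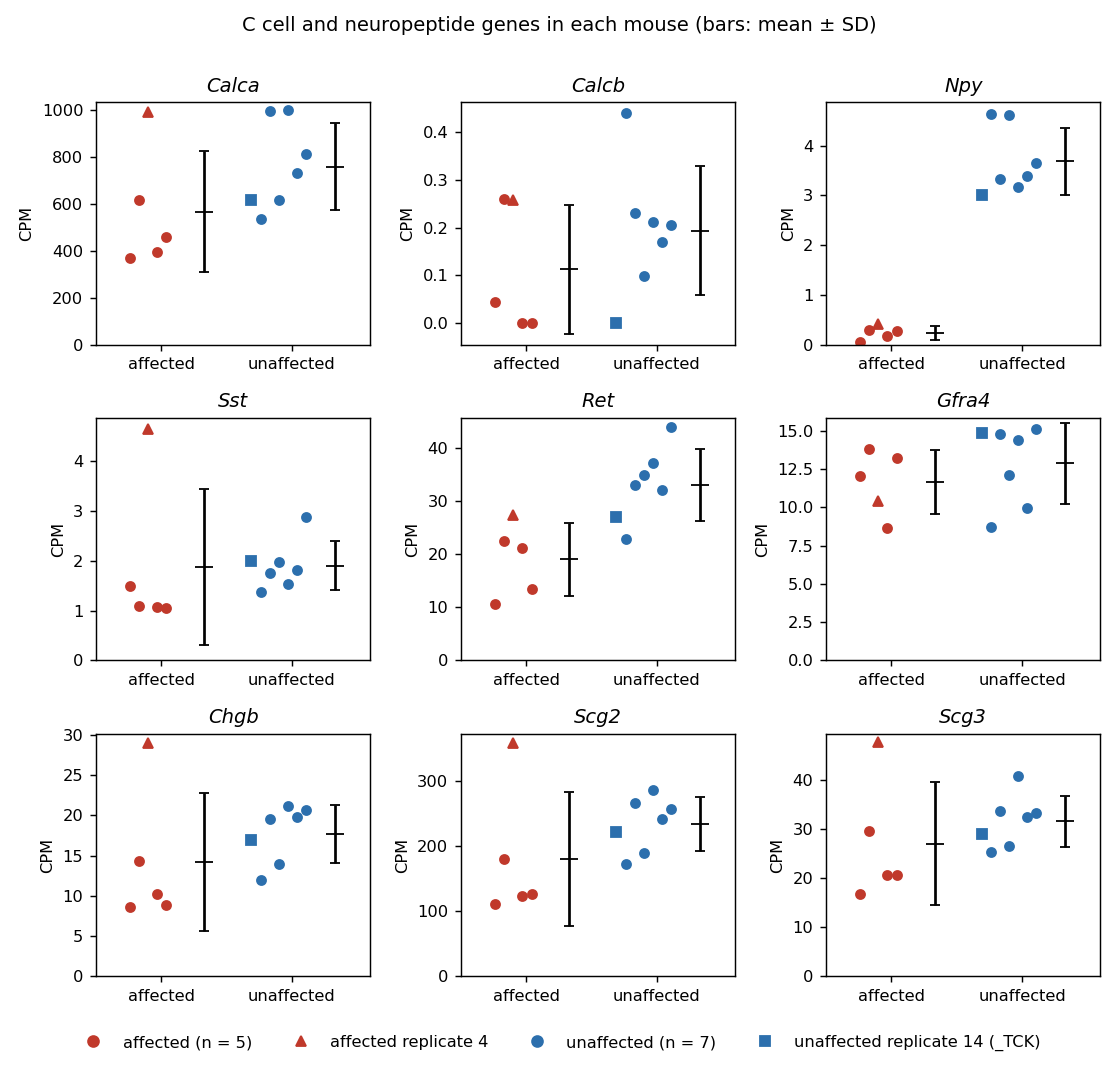
Level of each of the 9 genes in CPM (linear axes) in each affected mouse (red, n = 5) and unaffected mouse (blue, n = 7), with the group mean and SD as black bars; the triangle is affected replicate 4 and the square the _TCK mouse. Npy separates the groups without overlap, Ret overlaps in part, and affected replicate 4 stands above the other affected mice for Calca, Npy, Sst, Ret, Chgb, Scg2 and Scg3.

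*Npy* (ENSMUSG00000029819, chr6:49822710-49829507, plus strand, 1 annotated transcript of 4 exons) encodes neuropeptide Y. Its CPM was 0.0437, 0.303, 0.412, 0.172 and 0.275 in affected replicates 1, 3, 4, 5 and 6, which are 1, 7, 8, 4 and 5 counts. In the 7 unaffected mice it was 3.00 at the lowest, 3.40 at the median and 4.64 at the highest, from 36 to 95 counts. The affected values were all near the level of a few reads, and the nearest mice of the groups were 0.412 and 3.00 CPM. The fitted log2 fold change was -3.92 ± 0.34 (SE), a level 15.2-fold lower in affected mice. The _TCK mouse, which shares its supplier with the affected mice, had 3.00 CPM from 36 counts. That was the lowest of the unaffected mice and within 1.55-fold of the highest of them. It is 1 library of a knockout animal, and the part of supplier or substrain in the level of *Npy* was not tested. Without any 1 mouse the log2 fold change lay between -4.17 and -3.65.

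The other peptide genes, *Sst* and *Calcb*, did not separate the groups. *Sst* (ENSMUSG00000004366, chr16:23889573-23890958, minus strand) encodes somatostatin, an inhibitor of hormone release. It measured 1.48, 1.08, 4.64, 1.08 and 1.05 CPM in affected replicates 1, 3, 4, 5 and 6, and 1.37, 1.81 and 2.88 CPM at the lowest, median and highest of the unaffected mice. Of the affected mice, 4 of 5 were thus below the unaffected median, and affected replicate 4 was the highest of the 12. The log2 fold change was -0.03 ± 0.38 (SE) with all mice and -0.67 without affected replicate 4. *Calcb* (ENSMUSG00000030666, chr7:114718643-114723365, plus strand) had 12 counts in the 5 affected and 27 in the 7 unaffected mice, with a highest value of 0.44 CPM. It was at 0 counts in affected replicates 5 and 6 and in the _TCK mouse, which allows up to 0.129, 0.165 and 0.25 CPM (3 counts each, counting error only). A difference in *Calcb* was not detectable at this depth.

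*Calca* (ENSMUSG00000030669, chr7:114631478-114636357, minus strand), the calcitonin gene, held between 0.0391% and 0.0973% of all counts of a mouse. Its CPM was 369, 617, 992, 393 and 460 in affected replicates 1, 3, 4, 5 and 6. In unaffected mice it was 537 at the lowest, 730 at the median and 997 at the highest. Affected replicates 1, 5 and 6 were below every unaffected mouse, replicate 3 was within their range and replicate 4 was near their highest. The log2 fold change was -0.42 ± 0.25 (SE) with all mice and -0.70 without affected replicate 4.

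The deposited tables allow 1 check of which transcript forms were present, a measure that did not enter the choice of the genes. Dividing a gene's count by its FPKM and by the total count gives the mean length of the transcripts that the authors' quantification assigned. For *Npy*, *Sst* and *Chgb*, with 1 transcript each, this gave the annotated 566, 721 and 2740 bases. For *Calca* it gave 814 ± 3.60 bases (SD, n = 5) in affected and 816 ± 1.84 bases (SD, n = 7) in unaffected mice, a difference of -1.95 bases (exact two-sided permutation test, p = 0.24; the 12 mice allow no p below 0.00126). *Calca* has 7 annotated transcripts, among them Calca-201 of 994 bases, which runs to the most distal last exon (chr7:114631478-114631905), and Calca-202 and Calca-207 of 830 and 720 bases, which end in exon 4. The implied mean length lay between those of Calca-202 and Calca-207 in every mouse, but a mean over 7 transcripts does not give their shares. The same measure differed by -20.7 bases for *Ret* (p = 0.322), 14.7 for *Gfra4* (p = 0.572), -6.30 for *Scg2* (p = 0.153) and 12.6 for *Scg3* (p = 0.304), each by the exact permutation test and not adjusted. Groups overlapped for all 5 genes with several transcripts, as they did for all but 1.38% of the 12928 such genes with at least 10 counts in every mouse. Each of the 5 genes was also compared with each of the 12 mice left out in turn, by exact permutation tests without adjustment. The lowest p was 0.0303 for *Calca*, without affected replicate 5 (-3.29 bases), and the highest 0.506. For *Scg2* the lowest was 0.0238, without the _TCK mouse (-8.67 bases), and the highest 0.276. The lowest of so many comparisons is not read as a difference.

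*Ret* (ENSMUSG00000030110, chr6:118151745-118197718, minus strand, 2 annotated transcripts) encodes the receptor tyrosine kinase for ligands of the glial cell line-derived neurotrophic factor (GDNF) family. Its CPM was 10.6, 22.4, 27.3, 21.2 and 13.4 in affected replicates 1, 3, 4, 5 and 6, and 22.9, 32.9 and 43.9 at the lowest, median and highest of the unaffected mice. Of the affected mice, 4 of 5 were below every unaffected mouse, and affected replicate 4 was above 2 of them. The log2 fold change was -0.80 ± 0.23 (SE), 1.74-fold lower in affected mice. Over the other settings tried it ranged from -0.95 to -0.52. *Calca*, *Npy*, *Gfra4* and *Scg2* were likewise below 0 in every setting in which they were fitted. All of these refit the mice that chose the genes, so the sign is not independent support.

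*Gfra4* (ENSMUSG00000027316, chr2:131039632-131043088, minus strand), the GPI-anchored co-receptor that pairs with *Ret* to bind persephin, had the least spread of the tested genes in affected mice. Its CPM was 12.1, 13.8, 10.4, 8.67 and 13.2 in affected replicates 1, 3, 4, 5 and 6, and 8.74, 14.4 and 15.1 at the lowest, median and highest of the unaffected mice. The groups overlapped almost fully, with a log2 fold change of -0.15 ± 0.16 (SE). Affected replicate 4, which was high for the granins and *Calca*, ranked 9th of 12 mice for *Gfra4*. The deposited table marks *Gfra4* as overlapping another gene, and 80 exonic bases are shared with the microRNA gene *Mir6973b* on the same strand, so its count is uncertain to that extent. Of the ligands and other co-receptors of the family, 5 of 8 were tested and 1 was higher in affected mice, *Gfra1*, the GDNF co-receptor, at 9.68 CPM against 3.85 CPM (log2 fold change 1.33 ± 0.35 SE, adjusted p = 0.0269 by edgeR with Benjamini-Hochberg adjustment). *Gfra1* is marked as overlapping another gene, and its call was lost without affected replicate 1 or 5 or unaffected replicate 25 or 26, on unfiltered log2 FPKM and with *Calca* as a covariate.

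Granins are acidic proteins that condense in secretory granules and are cut into peptides. *Scg2* (ENSMUSG00000050711, chr1:79434669-79440120, minus strand), secretogranin II, measured 111, 180, 357, 123 and 126 CPM in affected replicates 1, 3, 4, 5 and 6. Its unaffected values were 172 at the lowest, 242 at the median and 285 at the highest. *Chgb* (ENSMUSG00000027350, chr2:132781278-132795079, plus strand), chromogranin B, had 8.65, 14.4, 29.0, 10.3 and 8.92 CPM in the same 5 mice, against 11.9, 19.6 and 21.2 CPM at the lowest, median and highest unaffected mouse. Both genes showed 3 affected mice below the unaffected range, 1 within it and replicate 4 above it. *Scg3* (ENSMUSG00000032181, chr9:75643189-75684056, minus strand) encodes secretogranin III, which binds other granins at the granule membrane. It showed the same pattern with 16.8, 29.5, 47.7, 20.6 and 20.5 CPM, against 25.3, 32.4 and 40.7 CPM at the lowest, median and highest unaffected mouse. The table marks *Scg3* as overlapping another gene. The gene found there, *Gm37871*, lies on the opposite strand and shares 0 exonic bases with it.

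The log2 fold changes were -0.38 ± 0.28 for *Scg2*, -0.32 ± 0.29 for *Chgb* and -0.22 ± 0.23 for *Scg3* (SE). All 3 depended on a single library: without affected replicate 4 they were further below 0, at -0.77, -0.73 and -0.51. Affected replicate 4 ranked highest of 12 mice for *Scg2*, *Chgb*, *Scg3* and *Sst* and number 3 for *Calca*, while the other 4 affected mice had 111 to 180 CPM of *Scg2* and 8.65 to 14.4 CPM of *Chgb*. For the genes in which affected replicate 4 was high, the spread in affected mice was wide, with coefficients of variation of 57.3% for *Scg2*, 60.1% for *Chgb* and 45.4% for *Calca* against 17.7%, 20.2% and 24.5% in unaffected mice.

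*Scg2*, *Scg3* and *Chgb* rose and fell with *Calca* from mouse to mouse. Over the 12 mice the correlation of log2 CPM with *Calca* was r = 0.97 for *Scg2* (Spearman's rho 0.95), 0.95 for *Scg3* (rho 0.97) and 0.94 for *Chgb* (rho 0.92). These are descriptions of points that share library scaling, and no p was computed. Leaving out the mice farthest from the median of *Calca*, affected replicate 1 and unaffected replicate 24, gave r = 0.95, 0.93 and 0.92. Within the 7 unaffected mice r was 0.93, 0.92 and 0.85. Among 17677 genes ranked by r with *Calca*, *Scg2* was number 3, *Scg3* number 8 and *Chgb* number 14.

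*Ret* followed *Calca* less closely, with r = 0.79 (rho 0.82) over 12 mice, 0.67 without those outer mice and 0.66 in the 7 unaffected mice. *Sst* had r = 0.62 over 12 mice, 0.77 without those outer mice and 0.12 in the unaffected mice, where it was 0.83 over the 5 mice left without unaffected replicates 22 and 24. *Gfra4* had 0.39 over 12 mice and 0.62 in the unaffected mice. For *Npy* the groups lie apart, so a pooled value only restates the contrast. In the 7 unaffected mice its r with *Calca* was -0.59 (rho -0.43), and with *Scg2* it was -0.79 (rho -0.61), although the latter was 0.31 over the 5 mice left without unaffected replicates 21 and 23 and so rests on them. With both groups centred on their own means, r over the 12 mice was 0.46 with *Calca*, 0.49 with *Scg2*, 0.56 with *Scg3* and 0.55 with *Ret*, so the sign of the relation within groups depends on which mice enter.

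**Figure D2:**
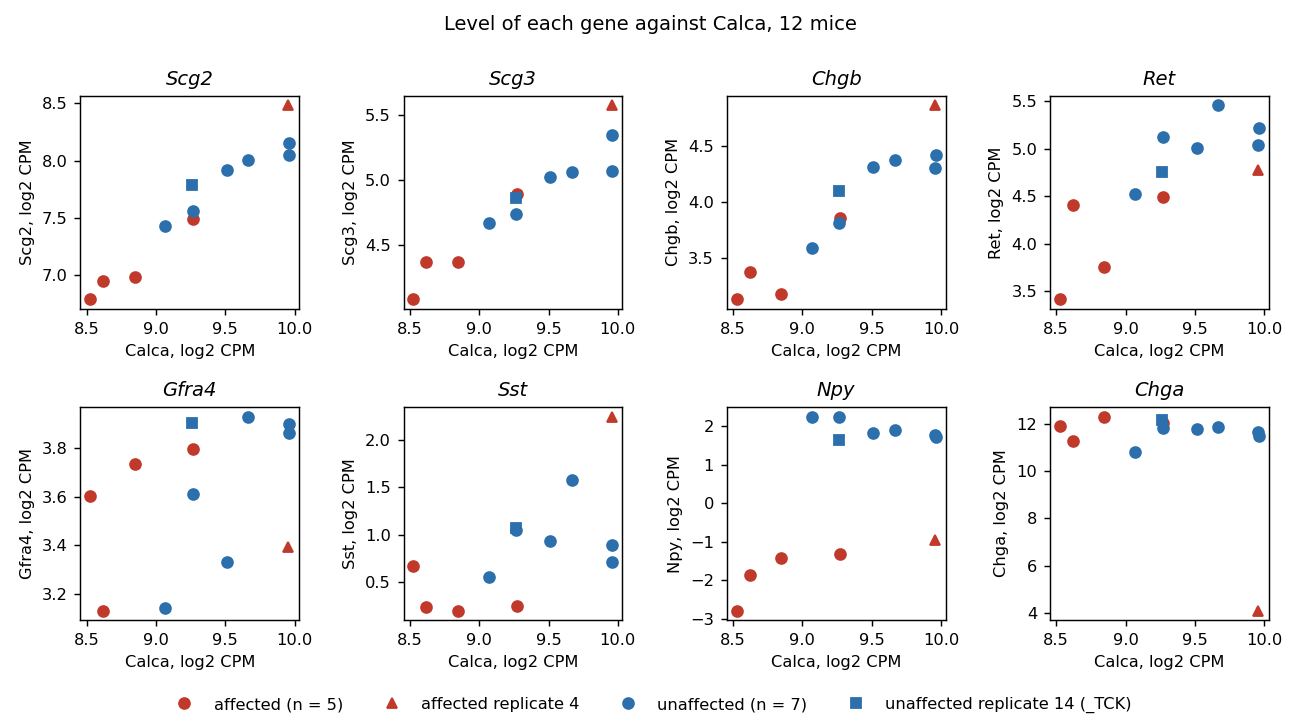
Log2 CPM of Scg2, Scg3, Chgb, Ret, Gfra4, Sst, Npy and chromogranin A (Chga) against log2 CPM of Calca, 1 point per mouse (red affected, n = 5; blue unaffected, n = 7; triangle affected replicate 4; square _TCK mouse). Scg2, Scg3 and Chgb lie along 1 line for both groups, Npy lies on separate levels for the groups at like levels of Calca, and Chga shows no such line.

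Dividing by *Calca* removes the scaling between libraries. The log2 ratio of *Scg2* to *Calca* was -1.70 ± 0.15 (SD) in affected and -1.68 ± 0.14 in unaffected mice, a difference of -0.02, and for *Chgb* the difference was 0.04. *Scg3* differed by 0.17, *Sst* by 0.23, *Gfra4* by 0.35 and *Ret* by -0.36, with overlapping groups for each. The ratio of *Npy* to *Calca* was -10.7 ± 0.41 in affected and -7.63 ± 0.54 in unaffected mice, a difference of -3.08, and the groups did not overlap. That separation restates the contrast that chose the genes. The prior count of 2 in log2 CPM shrinks such differences for genes with few counts, so -3.08 is not comparable with the fitted change. With log2 CPM of *Calca* as a covariate in the fit, the log2 fold change of *Npy* was -3.81, of *Ret* -0.52 and of *Scg2* -0.01.

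**Figure D3:**
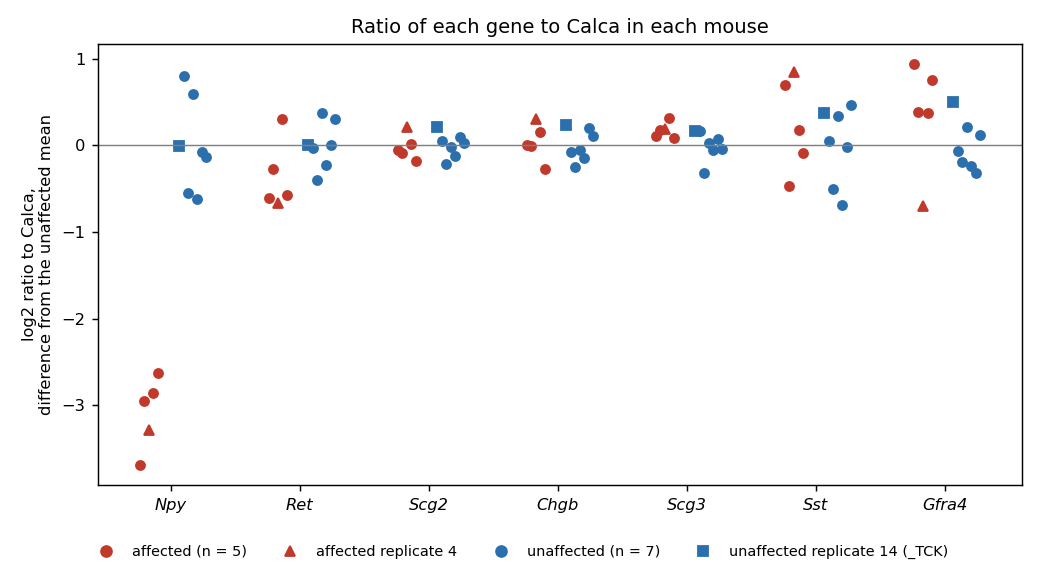
Log2 ratio of each gene to Calca in each mouse, drawn as the difference from the mean of the unaffected mice (grey line at 0), with red for affected (n = 5), blue for unaffected (n = 7), a triangle for affected replicate 4 and a square for the _TCK mouse. The affected mice lie between 2 and 4 log2 units below the line for Npy, on both sides of it for Scg2 and Chgb, and a little above it for Scg3.

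The markers used for C cells were *Calca*, *Calcb*, *Ret*, *Gfra4* and *Chga*. Of these *Chga* did not follow *Calca*, *Gfra4* did so weakly (r = 0.39 over 12 mice), and *Calcb* was left out of the correlations. *Chga*, chromogranin A, measured 3907, 4225, 16.9, 2483 and 5111 CPM in affected replicates 1, 3, 4, 5 and 6, and 1814, 3543 and 4548 CPM at the lowest, median and highest unaffected mouse. Its r with *Calca* was -0.39 over 12 mice and -0.03 without affected replicate 4. *Pth*, parathyroid hormone, measured 3088, 3033, 0.722, 1759 and 3926 CPM in those 5 affected mice and 1653 to 3130 CPM in unaffected mice. *Chga* followed *Pth* with r = 0.996 (rho 0.97), and with r = 0.94 after leaving out affected replicates 4 and 6, the mice farthest from the median of *Pth*. Affected replicate 4, the mouse with the most *Scg2*, *Chgb*, *Scg3* and *Sst*, thus held almost no parathyroid hormone RNA, and the 5 parathyroid markers together, *Pth* and the calcium receptor gene *Casr* foremost, came to 50.7 CPM there against 1893 to 4498 CPM in the other mice. The part of parathyroid tissue in the levels of the 9 genes was not tested. Of the parathyroid markers, 0 of 5 passed the test between groups by edgeR with Benjamini-Hochberg adjustment.

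**Figure D4:**
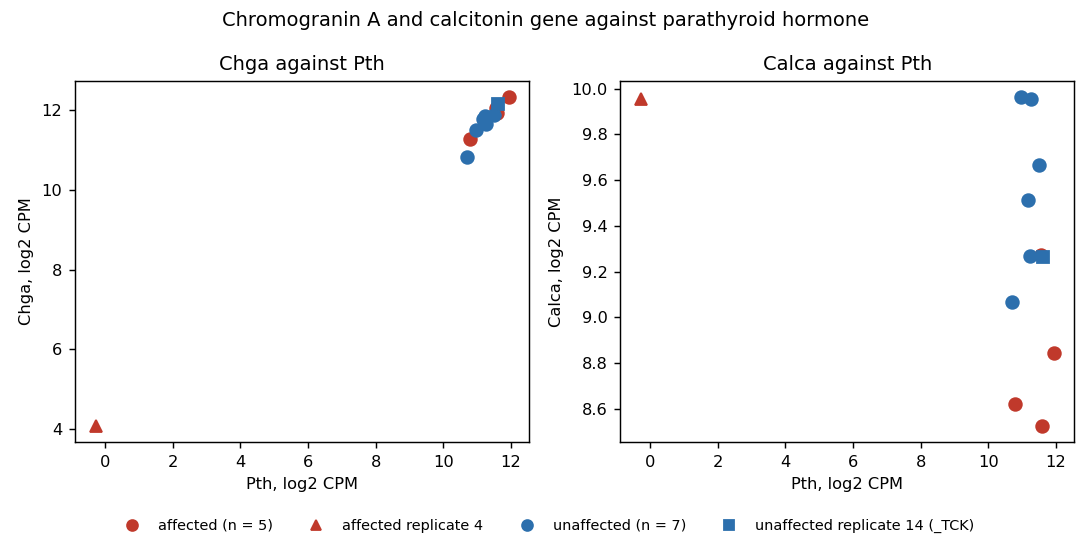
Log2 CPM of Chga (left) and of Calca (right) against log2 CPM of Pth, 1 point per mouse (red affected, n = 5; blue unaffected, n = 7; triangle affected replicate 4; square _TCK mouse). Chga lies along a line with Pth in the 12 mice, and affected replicate 4, with 0.722 CPM of Pth, ranks number 3 for Calca.

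Some other tissue markers, but not all, also varied with *Calca* over the pooled mice. Affected replicate 1, the mouse with the least *Calca*, had the fewest follicular counts (101119 CPM), the most of the fat markers led by *Fabp4* and *Ucp1* (2710 CPM, against 358 to 1174 CPM in the other affected and 373 to 865 CPM in unaffected mice) and the most of the Schwann cell markers including *Mbp* (373 CPM against 99.5 to 132 CPM and 77.4 to 144 CPM). Affected replicate 4 had the most follicular counts of the affected mice (256409 CPM). Over 12 mice the follicular sum had r = 0.79 with *Calca* and the fat sum -0.72. The skeletal muscle and endothelial sums each had r = -0.003. These values pool both groups, and none was computed for these sums within a group or with mice left out. Their part in the levels of *Calca* and the granins was not tested. For *Npy*, which sympathetic nerves also make, the 14 neuron markers summed to 9.13 to 13.5 CPM in affected and 8.21 to 13.6 CPM in unaffected mice. Among their noradrenergic members, the transporter gene *Slc6a2* measured 0.66 ± 0.60 and 0.57 ± 0.69 CPM and the transcription factor gene *Phox2a* 0.15 ± 0.09 and 0.20 ± 0.12 CPM in affected and unaffected mice (SD, the latter gene marked as overlapping), with *Dbh* at 0.0568 ± 0.0429 and 0.0351 ± 0.0475 CPM and *Th* at 0.90 ± 1.99 and 0.0271 ± 0.0464 CPM. Of the 6 neuron markers tested, 1 passed, higher in affected mice, *Uchl1* (3.50 against 2.28 CPM, log2 fold change 0.62 ± 0.18 SE, adjusted p = 0.0382 by edgeR), marked as overlapping another gene and lost without any 1 of 8 mice and in 7 of 11 other settings, and *Stmn2* measured 2.37 and 2.29 CPM. *Elavl4* (0.74 against 1.43 CPM, adjusted p = 0.0545 by edgeR) and *Nefl* (0.87 against 1.52 CPM, marked as overlapping) had lower means in affected mice. *Prph* measured 0.43 and 0.29 CPM and *Nefh* 0.92 and 0.93 CPM.

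For *Calca* and for *Npy*, the 10 genes outside the 9 with the highest correlation over the 12 mice were named. For *Calca* they included *Resp18*, a neuroendocrine granule-associated protein, the transcription factor gene *St18*, the prohormone convertase genes *Pcsk2* and *Pcsk1*, *Unc80*, *Tnr*, *Stxbp5l*, *Prmt8* and *Abcc8*, the regulatory subunit of the ATP-sensitive potassium channel. Their r was 0.94 to 0.98 over all mice and 0.84 to 0.97 in the 7 unaffected mice, and 0 of 10 passed the test between groups by edgeR with Benjamini-Hochberg adjustment. *Pcsk2*, at 70.1 CPM in affected and 84.9 CPM in unaffected mice, and *Pcsk1*, at 21.2 and 28.2 CPM, cut peptide precursors in granules. Of these genes, 8 of 10 are marked as overlapping another gene, *St18* and *Pcsk1* being the exceptions.

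The 10 genes with the highest r with *Npy* were *Slc35f2*, *Fras1* and *Egfl6*, which encode a solute carrier and extracellular matrix proteins, *Pitpnm3*, *Ano9*, *2210016L21Rik*, *Col4a3*, a basement membrane collagen, *Lacc1*, *Mllt1* and *Snx31*. All 10 were lower in affected mice, with log2 fold changes from -2.56 to -0.45, and their r of 0.96 to 0.98 over 12 mice restates that split. In the 7 unaffected mice their r with *Npy* ranged from -0.73 to 0.54, below 0 for 8 of 10. Of them, 5 of 10 carry the overlap mark: *Fras1*, *Ano9*, *2210016L21Rik*, *Col4a3* and *Lacc1*.

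Beyond the 9 genes, 11 lists covered the pathways around them with 92 genes, of which 62 were tested. By edgeR with Benjamini-Hochberg adjustment 4 of the 62, or 6.45%, were higher in affected mice and 0 lower, at a median log2 fold change of -0.08. Of all 19661 genes tested, 7.63% were higher and 6.1% lower. For secretory machinery, 0 of 3 granins outside the 9 genes (*Chga* the most abundant), 0 of 7 prohormone processing genes (*Pam*, the peptide-amidating enzyme, at 287 against 338 CPM, marked as overlapping) and 1 of 20 genes of regulated secretion passed. The last was *Rab3d*, a granule GTPase, at 80.1 against 55.4 CPM (log2 fold change 0.53 ± 0.14 SE, adjusted p = 0.0265 by edgeR), a call lost without affected replicate 3 or 5, on library totals without *Tg* and on unfiltered log2 FPKM. Of the transcription factors of neuroendocrine cells, 0 of 7 passed, and *Isl1*, which is needed for many endocrine cells, was the most abundant at 17.4 against 23.9 CPM.

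In the calcitonin family and its receptors 1 of 7 passed, *Adm2*, adrenomedullin 2, at 5.38 against 1.68 CPM (log2 fold change 1.67 ± 0.35 SE, adjusted p = 0.0085 by edgeR), which passed without each mouse in turn. Among other neuropeptides 1 of 3 passed, *Penk*, proenkephalin, at 15.9 against 9.83 CPM (log2 fold change 0.70 ± 0.20 SE, adjusted p = 0.0336 by edgeR), a gene marked as overlapping whose call was lost without affected replicate 3 or 6 or unaffected replicate 21, 25 or 26, on library totals without *Tg* and in all 3 fits of log2 FPKM. None passed, 0 of 2, among the relatives and receptors of neuropeptide Y with *Dpp4*, the peptidase that trims it, at 43.9 against 42.6 CPM, nor, 0 of 2, among the somatostatin receptors with *Sstr4* at 1.03 against 1.14 CPM. Serotonin handling (0 of 4, *Maoa* at 30.3 against 30.4 CPM) and calcium sensing (0 of 4, *Casr* at 208 against 199 CPM, marked as overlapping) had no gene past the threshold. A p that misses the threshold does not show that levels were equal.

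Among the remaining marker lists, 3 of 5 macrophage markers were higher in affected mice by edgeR with Benjamini-Hochberg adjustment, *Cd68*, *Mrc1* and *Csf1r*, beside 7.63% of all genes tested. The other 2 did not pass, and the list summed to 120 to 186 CPM in affected and 56.9 to 136 CPM in unaffected mice, which overlap. *Cd68* passed in all alternatives tried. The call of *Csf1r* was lost without any 1 of 10 mice and in 9 of 11 other settings, and that of *Mrc1* without affected replicate 1 or 5 and in 4 of 11 other settings, among them library totals without TMM factors or without *Tg*. *Mrc1* and *Csf1r* are marked as overlapping another gene. Of 6 Schwann cell markers 1 was lower (*S100b*, marked as overlapping, log2 fold change -0.71 ± 0.11 SE, adjusted p = 0.0018), as were 1 of 9 follicular markers (*Pax8*, marked as overlapping, -0.81 ± 0.19 SE, adjusted p = 0.0158) and 1 of 5 endothelial markers (*Kdr*, -0.60 ± 0.18 SE, adjusted p = 0.0413, lost without any 1 of 9 mice and in 4 of 11 other settings, beside *Pecam1* at 183 and 147 CPM). Of 4 airway markers 1 was higher (*Bpifa1*, 306 against 9.32 CPM, adjusted p = 0.0197), a call lost in all 3 fits of log2 FPKM and without affected replicate 3, in which the airway list with *Scgb3a2* summed to 1546 CPM against at most 122 CPM in the other mice. Muscle, fat, T cell (*Rag1* and *Cd8a* foremost) and erythrocyte markers (*Hbb-bs* and *Hba-a2* foremost) had 0 of 5, 0 of 5, 0 of 3 and 0 of 5 past the threshold. The part of these tissues in the levels of *Npy* and *Ret* was not tested.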

How the data were processed

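Thyroid RNA of 12 mice, 5 affected and 7 unaffected by the labels, was sequenced after ribosomal RNA removal. The authors aligned reads with the OmicSoft aligner (OSA4) to a reference they name Mouse.B39 with Ensembl genes, and deposited estimated counts per gene, without normalization, and FPKM values, which are scaled to transcript length and library. Whether counting used the strand is not stated. Estimated counts were rounded to whole numbers. The authors' flag for overlapping genes was carried along.

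Genes were filtered with filterByExpr (minimum count 10), scaled with TMM factors and tested with edgeR 4.0.16 (quasi-likelihood, robust, R 4.3.3), affected against unaffected, with Benjamini-Hochberg adjustment and a threshold of 0.05. The labels do not say whether mice were littermates, so p-values measure the spread between these mice. Log2 CPM values have a prior count of 2. Alternatives were DESeq2 1.42.0, limma 3.58.1 on log2 FPKM with a pseudocount of 1 or 0.1, either kept to genes averaging 0.5 FPKM or more or unfiltered (such fold changes understate those of low genes), other scalings and filters, the _CRW mice alone as controls, *Xist* or *Calca* as a covariate, and leaving out each mouse. The genes and the 11 pathway and 12 marker lists were chosen with earlier results of these data known. Named genes are the 9 genes, per pathway list up to 4 genes with the largest change past the threshold or else the most abundant gene, per marker list the 2 most abundant and up to 4 past the threshold, and the 10 genes with the highest r with *Calca* and with *Npy*, the 9 genes left out (average log2 CPM of at least 0). *Dbh*, *Th*, *Slc6a2*, *Phox2a*, *Elavl4*, *Nefl*, *Prph*, *Nefh*, *Gm37871* and *Mir6973b* were named after their values were seen, outside that rule. A few genes that meet it are not reported here. Implied transcript lengths were compared by exact permutation tests. In counts simulated for 19661 genes, 200 of them changed, the test recovered 64% of genes changed 2-fold and 90% of those changed 4-fold, and 4.94% of its calls were false. Far more genes passed in the data (2699), so these rates may not hold there. The coordinates of the 9 genes are those of GENCODE M21 on GRCm38, which served as annotation, and promoters were RefSeq's.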

Additional observations from a re-analysis of the deposited data

Results flagged for a closer look

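Each of the 9 genes was checked in both groups for a mouse set apart by Dixon's ratio, 28 checks on CPM and implied length in all, in which chance alone marks about 1 group in 20. In affected replicate 4, *Scg2* was 357 CPM with the next affected mouse at 180 CPM, *Chgb* was 29.0 CPM with the next at 14.4 CPM, and *Sst* was 4.64 CPM with the next at 1.48 CPM. In unaffected replicate 26, *Sst* was 2.88 CPM with the next unaffected mouse, the _TCK mouse, well below it. Of these 4 values, 3 belong to 1 mouse, the one with 0.722 CPM of *Pth*, and whether the tissue taken from it differed was not tested.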

How the results depend on the processing

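The log2 fold change of *Npy* was -4.17 to -3.65 when 1 mouse was left out. It was below 0 under each alternative that could be fitted, all of them refits of the mice that chose the gene. On log2(FPKM + 1) it was -2.41, with and without the filter, a scale that shrinks the change of low genes by construction. With at least 10 counts in every mouse *Npy* could not be fitted, because its affected counts were below that. *Ret* ranged from -0.95 to -0.64 when 1 mouse was left out and was -0.52 with *Calca* as a covariate. When 1 mouse was left out *Calca* ranged from -0.70 to -0.30, *Gfra4* from -0.22 to -0.06, *Sst* from -0.67 to 0.12, *Chgb* from -0.73 to -0.18, *Scg2* from -0.77 to -0.24 and *Scg3* from -0.51 to -0.09. With *Calca* as a covariate *Chgb* (0.06), *Scg3* (0.11) and *Sst* (0.25) came out above 0.

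The count of 2699 genes changed over the whole table became 1339 on log2(FPKM + 1) without a filter and 1798 with *Calca* as a covariate, and 1774 to 3390 when 1 mouse was left out, with 1774 without affected replicate 5. Library totals without *Tg* moved the median log2 fold change of all genes to -0.13, and changes such as that of *Calca* (-0.54) stand relative to it. When 1 mouse was left out the implied length differed by -3.29 to -1.04 bases for *Calca*, -29.0 to -11.0 for *Ret*, 0.941 to 27.9 for *Gfra4*, -8.67 to -4.46 for *Scg2* and 5.01 to 18.8 for *Scg3*. Using _CRW controls alone is the same set of mice as leaving out the _TCK mouse. That set therefore enters both the counts of mice left out and those of other settings. Of the 10 genes that followed *Calca*, 3 remained among the top 10 in the unaffected mice and 7 on log2(FPKM + 1). Of the 10 for *Npy*, 0 and 6 did. No paired analysis was possible because the groups share no replicate numbers. Depth limits *Calcb*, and *Npy* in affected mice.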

Other observations

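*Nmu*, *Grp* and *Cartpt*, from the list of other neuropeptides, were noticed after their values were seen. *Cartpt* was higher in affected mice without overlap, at means of 0.0946 against 0 CPM, and did not pass the filter on low counts. *Nmu*, neuromedin U, did not pass that filter either and had 0.0437 to 0.216 CPM in affected against 0.277 to 0.849 CPM in unaffected mice. The groups did not overlap, but this rests on 1 to 5 against 6 to 15 counts. *Nmu* is marked as overlapping another gene. *Grp*, gastrin-releasing peptide, also marked, had 9.30 to 31.4 CPM in affected and 22.7 to 56.4 CPM in unaffected mice (log2 fold change -0.69 ± 0.34 SE, adjusted p = 0.21 by edgeR with Benjamini-Hochberg adjustment).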
